A study of Mus musculus with 24 samples.

Results

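Transcripts of 7 transcription factors that pattern the vertebrate limb and other body regions, Pitx1, Tbx2, Tbx3, Tbx4, Tbx5, Meis1 and Meis2, were followed in cultured mouse embryonic fibroblasts (MEFs). They are 7 of the 55487 genes in the deposited gene table, and 5 of them (Pitx1, Tbx2, Tbx3, Meis1 and Meis2) had enough counts to be among the 15828 genes tested. The genes were picked by name because Pitx1 was high in the wild-type cells and Tbx2 in the knockout cells, so every difference between the genotypes that follows is a description and carries no test.

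Pitx1 is a paired-type homeobox factor that specifies hindlimb, and Tbx4 and Tbx5 are T-box factors of the outgrowing hindlimb and forelimb. Tbx2 and Tbx3 are closely related T-box repressors, active in limb margins, heart and mammary gland and known to hold back cell cycle inhibitor genes. Meis1 and Meis2 are TALE homeobox proteins that bind DNA with Pbx and Hox partners and mark the proximal limb. Fibroblasts taken from different body sites are known to keep part of such a positional program in culture, and these genes are therefore often read as a record of where a fibroblast line came from.

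The study asked whether AMPK, the energy-sensing kinase whose catalytic subunits are encoded by Prkaa1 and Prkaa2, is needed for the transcriptional response to MK-8722, a direct AMPK activator, and to torin1, an inhibitor of MTOR. WT MEFs and AMPK KO MEFs were each given DMSO (the vehicle control), MK-8722 or torin1, and poly(A) RNA of 4 libraries per group was sequenced, 24 libraries in 6 groups. Per the study, the AMPK KO cells are prkaa1 prkaa2 double-knockout MEFs.

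Each genotype was represented by cells of its own passage range (WT 12 to 15, AMPK KO 16 to 19), with each passage once in every group of that genotype. Genotype, cell line and passage range cannot be told apart. The libraries of a group are of different passages, and whether they were separate cultures beyond that is not stated. The p-values therefore measure the spread between passages of the same cells, and not the spread between independently derived lines. Transcripts of Prkaa1 (2046 to 2686 counts) and Prkaa2 (78 to 186 counts) were present in every AMPK KO library, so the counts do not check the knockout label. Libraries held 26900240 to 34192685 counts in all. Of 12 fibroblast markers 10 passed the filter, with a summed level of 11200 to 17300 CPM (a count set relative to library size) in the WT libraries and 4890 to 6960 CPM in those of AMPK KO, and the 5 skeletal muscle markers together stayed under 0.3 CPM. The summed level of 4 cardiomyocyte markers was 3.81 to 5.56 CPM in WT and 16.7 to 31.5 CPM in AMPK KO. That of 4 osteoblast markers was 47.6 to 74.8 CPM in WT and 23.5 to 29.9 CPM in AMPK KO. In each of these lists only 1 gene, Tnnt2 and Runx2, had a mean of at least 1 CPM, so neither sum shows a program of several genes. For 4 neural markers the sum was 43.5 to 94.1 CPM in WT and 61.2 to 114 CPM in AMPK KO, with Tubb3 as the most abundant gene. The part of other cell types in the levels given here was not tested.

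The members were measured at very unequal levels. On a scale per transcript length (TPM, which Salmon scales by length and depth), the order in WT was Pitx1 with a mean of 51.9 ± 7.14 TPM (SD, n = 12 libraries), Meis2 with 11.7 ± 1.15 TPM, Meis1 with 2.97 ± 0.803 TPM and Tbx3 with 1 ± 0.162 TPM. Tbx2 (0.0998 TPM) and Tbx4 (0.0478 TPM) followed near the limit of detection, and Tbx5 had no count in any WT library. In AMPK KO the order began with Meis2 (13.7 ± 1.32 TPM), Meis1 (9.14 ± 1.43 TPM) and Tbx2 (2.92 ± 0.606 TPM, SD, n = 12 each). Tbx5 (0.114 TPM), Pitx1 (0.0425 TPM), Tbx3 (0.0421 TPM) and Tbx4 (0.00152 TPM) came last, and the ranges of Tbx5, Pitx1 and Tbx3 overlapped there.

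Over the 12 libraries of each genotype, the CPM ranges of WT and AMPK KO did not overlap for Pitx1, Tbx2, Tbx3, Tbx5 and Meis1, 5 of the 7 members and 4 of the 5 tested ones. Of all tested genes, 28.2% had ranges that did not overlap in this way, and at an adjusted p under 0.05 with a fold change of at least 1.2 the shares called between the genotypes were 56.9% in DMSO, 58.9% in MK-8722 and 54.6% in torin1. Since the members were chosen on this contrast, nothing is read from these counts. In bulk RNA, fewer cells that express a gene and less of its RNA per cell cannot be told apart.

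**Figure D1:**
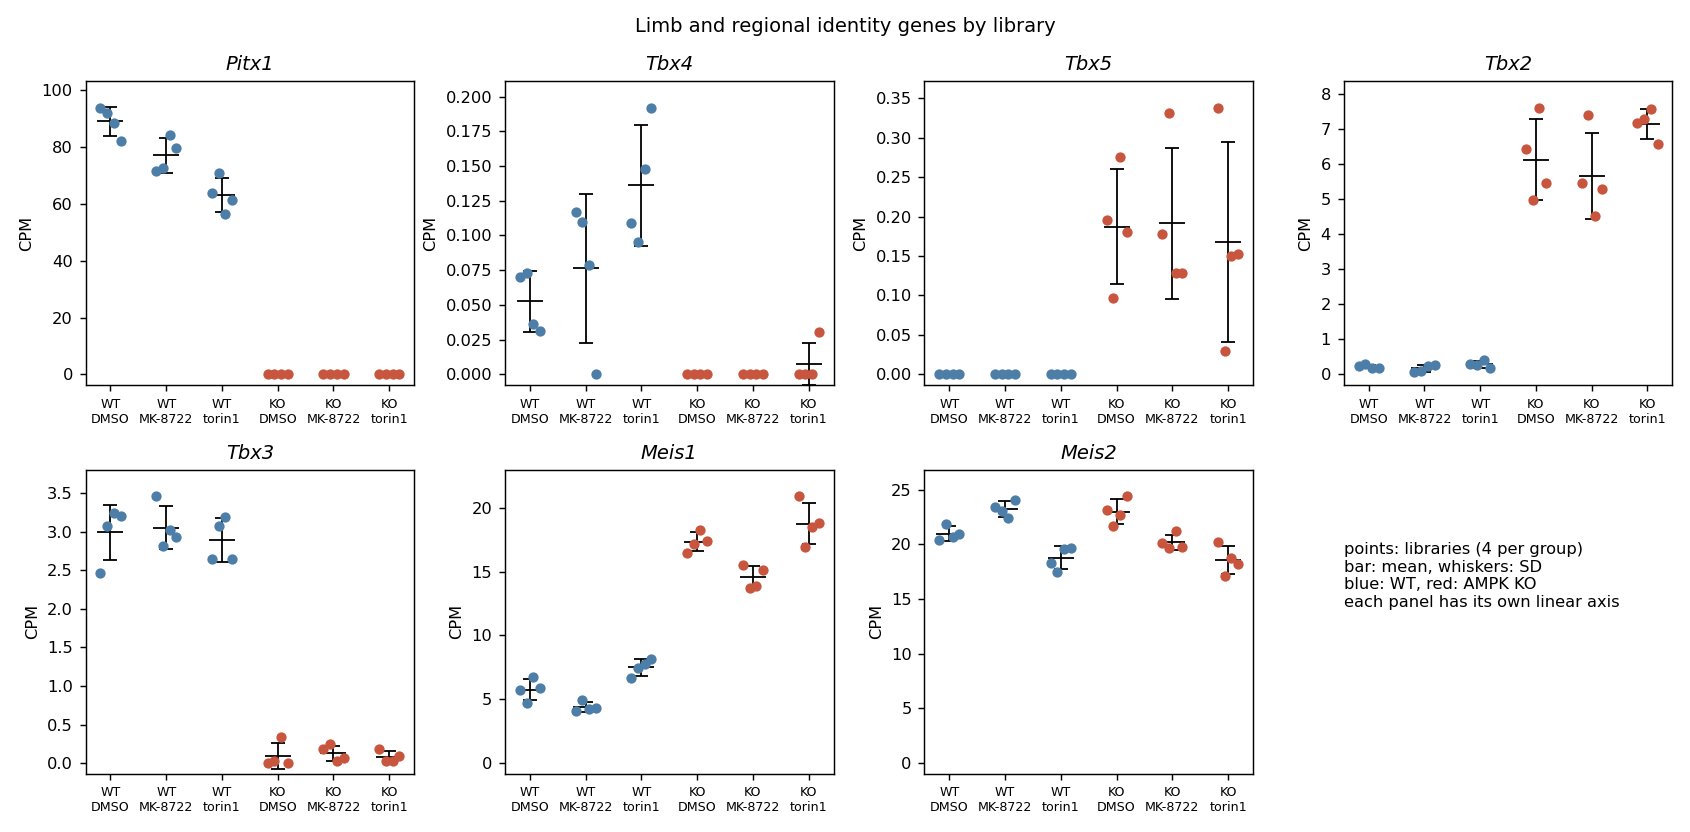
Levels of the 7 members in the 24 libraries, in CPM on a linear axis of its own for each gene, with 1 point per library (WT blue, AMPK KO red) and the mean and SD of the 4 libraries of each group. Pitx1 and Tbx3 are higher in the WT groups, Tbx2, Tbx5 and Meis1 are higher in the AMPK KO groups, and Meis2 lies between 17.1 and 24.4 CPM in every library.

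Pitx1 (ENSMUSG00000021506, GRCm38 chromosome 13, 55825051 to 55836192, minus strand) was the most abundant member in WT and near 0 in AMPK KO. In DMSO the 4 WT libraries held 2457, 2509, 2611 and 2672 counts, and the 4 AMPK KO libraries 0, 0, 0 and 1. Over all treatments the 12 WT libraries held 26438 Pitx1 counts and the 12 AMPK KO libraries 9, with at most 2 in any of them. Against a floor of 3 counts per library, Pitx1 was at least 945-fold higher in WT in DMSO, at least 827-fold in MK-8722 and at least 694-fold in torin1. The transcript ENSMUST00000021968 made up 95.2% of Pitx1 TPM in WT with DMSO. An annotated antisense gene that overlaps Pitx1, Gm47071, had 5 to 20 counts per WT library and 0 to 4 per AMPK KO library, and as the strand setting of the counting is not given in the sources used here, reads of the pair cannot be told apart.

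Within WT, Pitx1 fell with torin1 and lay between DMSO and torin1 with MK-8722. The DMSO libraries were at 82, 88.5, 91.8 and 93.8 CPM, those with MK-8722 at 71.5, 72.6, 79.8 and 84.3 CPM, and those with torin1 at 56.5, 61.3, 63.7 and 70.8 CPM. All torin1 libraries lay below all others, while the highest MK-8722 library lay above the lowest DMSO library. With torin1, Pitx1 fell by 0.50 on the log2 scale (SE 0.067, adjusted p = 7.8e-07 in edgeR's quasi-likelihood fit, by Benjamini and Hochberg's method over all tested genes), and it was lower in 4 of 4 passages. With MK-8722 the log2 difference was -0.21 (SE 0.067, adjusted p = 0.022 by edgeR), which is under the 1.2-fold limit set for a call, also lower in 4 of 4 passages. Torin1 against MK-8722 gave -0.29 (SE 0.067, adjusted p = 0.00071 by edgeR). That call was lost for its fold change, at log2 differences of -0.21 to -0.24, when WT torin1 replicate 3, WT MK-8722 replicate 3 or WT MK-8722 replicate 4 was left out, and at -0.20 when libraries were scaled by their size alone. In AMPK KO, at 0 to 2 counts, no effect of a drug on Pitx1 could be measured.

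Tbx2 (ENSMUSG00000000093, chromosome 11, 85832551 to 85841948, plus strand) had the reverse pattern. In DMSO the AMPK KO libraries held 154, 182, 196 and 249 counts (6.11 ± 1.15 CPM, SD, n = 4), and the WT libraries held 5, 6, 7 and 8. The mean level was 27-fold higher in AMPK KO than in WT in DMSO, 32.9-fold in MK-8722 and 24.9-fold in torin1, with 2 to 14 counts in every WT library. In AMPK KO the MK-8722 libraries held 140, 164, 184 and 246 counts, and the torin1 libraries 215, 233, 243 and 252. The torin1 group was the tightest (7.15 ± 0.426 CPM), and its range overlapped that of both other groups.

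No drug call was made for Tbx2. In AMPK KO the log2 difference was -0.11 (SE 0.16) for MK-8722 and 0.23 (SE 0.16) for torin1, with edgeR adjusted p values of 0.8 and 0.23. For torin1 against MK-8722 it was 0.33 (SE 0.16, adjusted p = 0.07 by edgeR) and higher in 3 of 4 passages. This comparison passed the limits with library size alone (0.41, adjusted p = 0.033 by edgeR), with passage as a block (0.36, adjusted p = 0.01 by edgeR), without AMPK KO MK-8722 replicate 2 (0.48, adjusted p = 0.011 by edgeR) and without all passage 16 libraries (0.45, adjusted p = 0.027 by edgeR). In WT the same comparison gave 0.71 (SE 0.39, adjusted p = 0.12 by edgeR) at 2 to 14 counts, and 1.05 (adjusted p = 0.046 by edgeR) without WT MK-8722 replicate 4. Tbx2 passed the filter only through the AMPK KO libraries, so nothing is read from these WT values.

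Tbx3 (ENSMUSG00000018604, chromosome 5, 119670669 to 119684724, plus strand), the paralog of Tbx2, lay on the opposite side. The WT libraries with DMSO held 70, 84, 90 and 102 counts (2.99 ± 0.365 CPM, SD, n = 4). The AMPK KO libraries with DMSO held 0, 0, 1 and 11, so 11 of 12 counts came from replicate 3. The AMPK KO means were 0.092 CPM with DMSO, 0.129 CPM with MK-8722 and 0.084 CPM with torin1. Those with DMSO and torin1 lay under the level of 3 counts per library, and no fold is given. The fitted log2 difference in DMSO, -4.94, moved to between -7.685 (without AMPK KO DMSO replicate 3) and -4.522 when 1 library was left out. Every WT library had at least 70 counts and every AMPK KO library at most 11.

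Tbx3 levels in WT overlapped between the 3 treatments, at 3.06 ± 0.285 CPM with MK-8722 and 2.89 ± 0.283 CPM with torin1 (SD, n = 4 each). Neither drug passed the test, with log2 differences of 0.03 (SE 0.3, adjusted p = 0.97 by edgeR) for MK-8722 and -0.05 (SE 0.3, adjusted p = 0.91 by edgeR) for torin1, and these errors leave room for changes in either direction. In AMPK KO the depth did not allow a statement, at 0 to 11 counts. Without AMPK KO DMSO replicate 3 alone, torin1 would give 2.54 (adjusted p = 0.03 by edgeR) in AMPK KO and the interaction of MK-8722 with genotype 3.18 (adjusted p = 0.023 by edgeR), where DMSO is left with 1 count.

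Tbx4 and Tbx5 did not pass the filter and were not tested. Tbx5 (ENSMUSG00000018263, chromosome 5, 119832668 to 119885219, plus strand) had 0 counts in all 12 WT libraries and between 1 and 11 counts in each of the 12 AMPK KO libraries. A count of 0 allows up to 3 counts, 0.0886 to 0.118 CPM depending on the library, which covers counting error only. Against that floor Tbx5 was at least 1.79-fold higher in AMPK KO in DMSO and at least 1.73-fold in each drug. Tbx4 (ENSMUSG00000000094, chromosome 11, 85886422 to 85916097, plus strand) showed the other distribution, with 0 to 6 counts per WT library and a single count in the 12 AMPK KO libraries together. In WT its counts were 1, 1, 2 and 2 with DMSO, 0, 2, 3 and 3 with MK-8722 and 3, 3, 5 and 6 with torin1. Those with torin1 all lay above those with DMSO, but 2 of them were at the floor of 3 counts. Of all tested genes, 51.8% had ranges that did not overlap between torin1 and DMSO in WT, so nothing is read from this.

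These T-box genes sit in the genome as pairs. Tbx2 and Tbx4 lie close together on chromosome 11, with 44474 bases and the protein-coding gene model Gm11444 between them, and Tbx3 and Tbx5 are adjacent protein-coding genes on chromosome 5, 147944 bases apart. By counts, the members of each pair lay on opposite sides of the genotype contrast: Tbx2 was higher in AMPK KO and Tbx4 had nearly all its counts in WT, while Tbx3 was higher in WT and Tbx5 had all its counts in AMPK KO. For Tbx4 this rests on 0 to 6 counts per WT library. With DMSO and MK-8722 all its libraries were at or under 3 counts, and its CPM ranges overlapped between the genotypes. The 12 libraries labelled WT held Pitx1 and Tbx3 transcripts, with traces of Tbx2 (81 counts in all) and Tbx4 (31). Those labelled AMPK KO held Tbx2 transcripts, with traces of Tbx5 (71 counts in all), Tbx3 (40) and Pitx1 (9). Meis1 and Meis2 transcripts were present in every library of both genotypes.

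**Figure D2:**
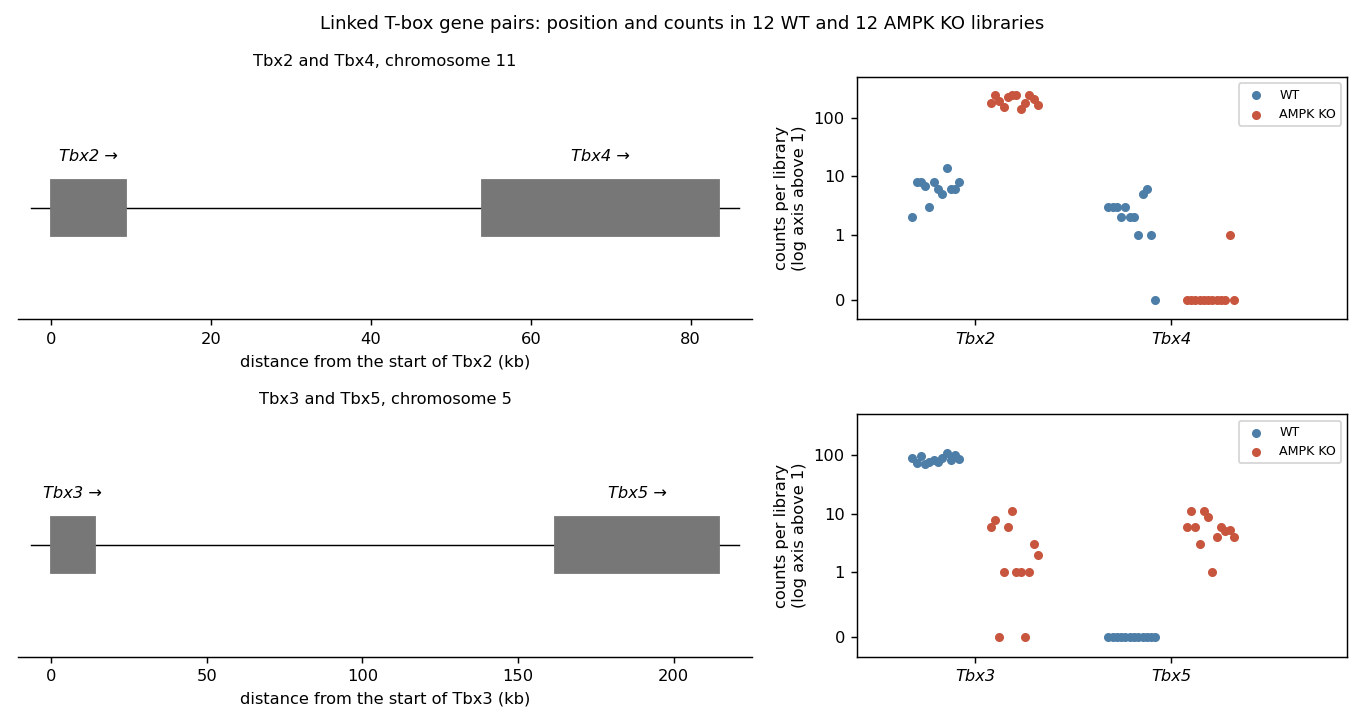
Linked T-box genes, with each pair drawn to scale on the left by its distance in kb from the start of Tbx2 or Tbx3 (arrows give the strand) and the counts in each WT and AMPK KO library on the right, on an axis that is logarithmic above 1 count. In both pairs the gene with more counts in AMPK KO (Tbx2, Tbx5) is paired with a gene that has more counts in WT (Tbx4, Tbx3). Tbx4 has at most 6 counts in any library, and its ranges overlap between the genotypes.

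Levels of the genes around the members were also read. Among the 3 nearest protein-coding genes on each side of each member, 31 were no members and 25 of these were tested. With torin1, 5 rose and 11 fell in WT, beside 47.6% of all tested genes called, and 5 rose and 7 fell in AMPK KO, beside 43.5%. With MK-8722, where 15.7% of all tested genes were called in WT, 2 rose there, Bcas3 (0.30, log2) and Rnft2 (0.38), and edgeR called 0 in AMPK KO, with 5 at an unadjusted p under 0.05. Bcas3 lies 6493 bases from Tbx2 and rose with torin1 by 1.16 on the log2 scale in WT and 1.35 in AMPK KO, whereas Tbx2 itself passed no test there. Rbm19, the nearest protein-coding gene beyond Tbx5, fell by 0.48 in WT and 0.36 in AMPK KO with torin1.

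Meis1 (ENSMUSG00000020160, chromosome 11, 18879817 to 19018985, minus strand) was called in 4 drug comparisons, more than any other member, although these share libraries. In WT the DMSO libraries were at 4.72, 5.69, 5.9 and 6.74 CPM, those with MK-8722 at 4.05, 4.24, 4.32 and 4.97 CPM, and those with torin1 at 6.63, 7.43, 7.77 and 8.15 CPM. The MK-8722 and torin1 libraries did not overlap each other, and each group met the DMSO range with 1 library. In AMPK KO the levels were 16.5, 17.2, 17.4 and 18.3 CPM with DMSO, 13.7, 13.9, 15.1 and 15.5 CPM with MK-8722, and 16.9, 18.5, 18.8 and 20.9 CPM with torin1. There the MK-8722 libraries lay below all others, and those with torin1 overlapped those with DMSO. By group means Meis1 was 3.01-fold higher in AMPK KO in DMSO, 3.31-fold in MK-8722 and 2.51-fold in torin1.

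In WT, Meis1 fell by 0.39 with MK-8722 (log2, SE 0.1, adjusted p = 0.0052 by edgeR) and rose by 0.38 with torin1 (SE 0.094, adjusted p = 0.0013 by edgeR), lower in 4 of 4 passages with MK-8722 and higher in 3 of 4 with torin1. Torin1 against MK-8722 gave 0.77 (SE 0.098, adjusted p = 3.7e-07 by edgeR) in WT and 0.37 (SE 0.083, adjusted p = 0.00055 by edgeR) in AMPK KO, higher in 4 of 4 passages in each. Without the passage 16 libraries the value in AMPK KO was 0.24 (adjusted p = 0.035 by edgeR), under 1.2-fold. In AMPK KO, MK-8722 gave -0.25 (SE 0.084, adjusted p = 0.11 by edgeR) and torin1 0.12 (SE 0.083, adjusted p = 0.24 by edgeR). The MK-8722 value missed the test although its libraries lay below those with DMSO in 4 of 4 passages, and with passage as a block its adjusted p was 0.027 at a change under 1.2-fold. The difference between the genotypes in these responses did not pass the test, at 0.14 (SE 0.13, adjusted p = 0.54 by edgeR) for MK-8722 and -0.27 (SE 0.13, adjusted p = 0.2 by edgeR) for torin1.

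**Figure D3:**
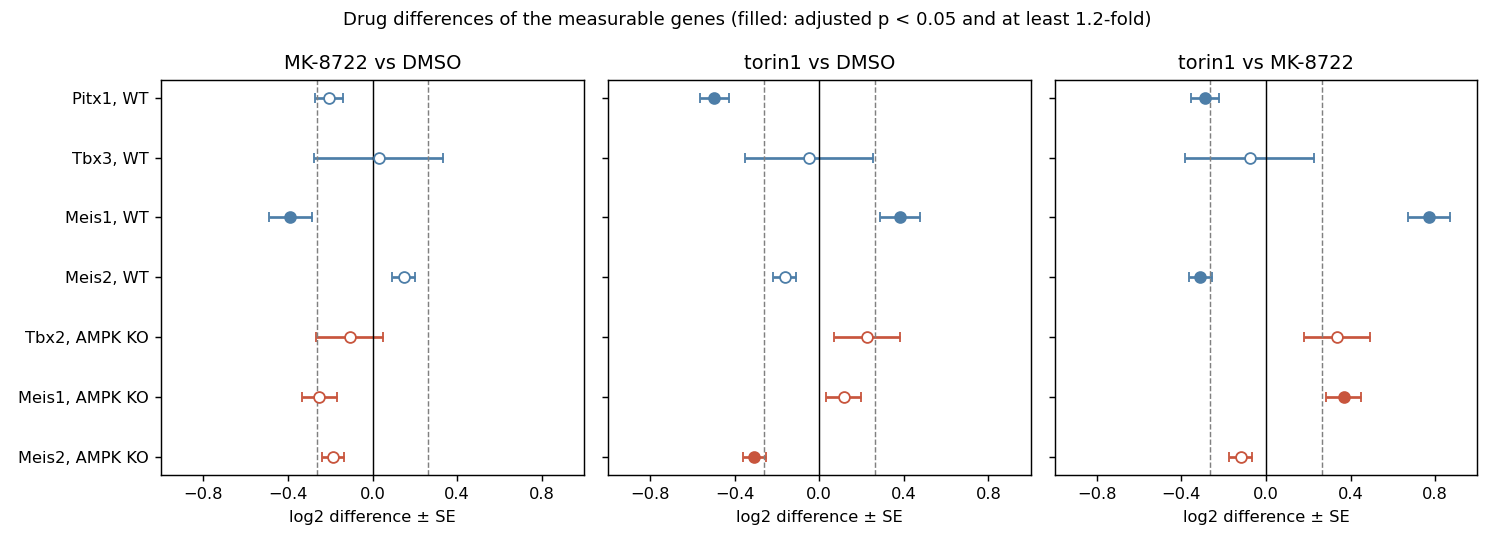
Log2 differences with bars of 1 SE for MK-8722 against DMSO, torin1 against DMSO and torin1 against MK-8722, for each tested member in the genotype or genotypes where it had more than a few counts. Filled points had an adjusted p under 0.05 and a change of at least 1.2-fold, marked by the dashed lines. Meis1 lies below 0 with MK-8722 and above 0 with torin1 in both genotypes, and Meis2 with MK-8722 lies above 0 in WT and below 0 in AMPK KO.

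Transcript ENSMUST00000068264 made up 69.8% of Meis1 TPM in WT with DMSO. A pair of antisense genes within Meis1, Gm16140 and Gm16141, had no counts in any WT library, and 6 to 24 and 1 to 10 counts per AMPK KO library, against 432 to 681 counts for Meis1 there. RefSeq promoter windows of 300 bases on GRCm38.p6 were at hand for 3 of the 7 members (Meis1, Meis2 and Tbx4), and that of Meis1 is shown since it is the member with the most drug calls. It holds 15 CG pairs, more than 65.4% of the 32851 windows of the table, and the stretch upstream of the outermost annotated start, chr11:19018986-19019219 on the minus strand, is given 5′ to 3′ with CG pairs in capitals.
Meis1: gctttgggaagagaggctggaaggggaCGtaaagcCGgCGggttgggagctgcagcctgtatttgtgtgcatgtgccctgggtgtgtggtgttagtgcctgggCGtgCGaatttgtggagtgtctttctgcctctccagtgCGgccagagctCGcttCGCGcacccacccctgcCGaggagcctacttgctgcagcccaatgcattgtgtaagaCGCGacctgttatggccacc
The 3 member windows held, on neither strand, the E-box CACGTG (in 7.15% of all windows), the T-box sequence TCACACCT (in 1.28%), the Meis core TGACAG (in 19.2%) or the Pitx core TAATCC (in 7.06%).

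Meis2 (ENSMUSG00000027210, chromosome 2, 115863064 to 116065839, minus strand) was the most even member, at 17.1 to 24.4 CPM in all 24 libraries. In WT the DMSO libraries were at 20.4, 20.7, 21 and 21.9 CPM, those with MK-8722 at 22.4, 23.1, 23.4 and 24.1 CPM, and those with torin1 at 17.5, 18.3, 19.6 and 19.7 CPM. In AMPK KO they were at 21.7, 22.7, 23.2 and 24.4 CPM with DMSO, 19.7, 19.8, 20.1 and 21.2 CPM with MK-8722, and 17.1, 18.2, 18.8 and 20.2 CPM with torin1. The 3 treatment groups did not overlap in WT. In AMPK KO both drug groups lay below DMSO and overlapped each other.

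By counts, Meis2 fell by 0.31 with torin1 in AMPK KO (log2, SE 0.054, adjusted p = 3.3e-05 by edgeR), and torin1 against MK-8722 in WT gave -0.31 (SE 0.054, adjusted p = 2.8e-05 by edgeR). MK-8722 gave 0.15 in WT (SE 0.054, adjusted p = 0.044 by edgeR, under 1.2-fold) and -0.19 in AMPK KO (SE 0.054, adjusted p = 0.059 by edgeR), so it was higher in 4 of 4 passages of WT and lower in 4 of 4 of AMPK KO. The difference between the genotypes in this response, tested as an interaction, was -0.34 (SE 0.076, adjusted p = 0.0036 by edgeR). Torin1 in WT gave -0.16 (SE 0.054, adjusted p = 0.012 by edgeR), under 1.2-fold, and its interaction with genotype was -0.14 (SE 0.076, adjusted p = 0.26 by edgeR).

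These Meis2 calls were lost when the counts were adjusted for the estimated length of its transcripts. Its mean effective length, weighted by transcript abundance, was 2669 bases in WT with DMSO, 2775 with MK-8722 and 2657 with torin1, and 2655, 2383 and 2190 bases in AMPK KO. With this length as an offset, torin1 in AMPK KO gave -0.04 (adjusted p = 0.78 by edgeR), the MK-8722 interaction -0.13 (adjusted p = 0.61 by edgeR), and torin1 against MK-8722 in WT -0.26 (adjusted p = 0.021 by edgeR, under 1.2-fold). With library size alone, torin1 in AMPK KO (-0.24) and torin1 against MK-8722 in WT (-0.22) also lay under 1.2-fold. On the TPM scale Meis2 in AMPK KO was at 13.6 ± 1.77 with DMSO and 14.3 ± 1.01 with torin1 (SD, n = 4 each). The calls for Meis1 and Pitx1 in WT remained with the same offset, at -0.39 (adjusted p = 0.0075 by edgeR) and 0.37 (adjusted p = 0.0025 by edgeR) for Meis1 with MK-8722 and torin1, and -0.50 (adjusted p = 3.1e-05 by edgeR) for Pitx1 with torin1.

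**Figure D4:**
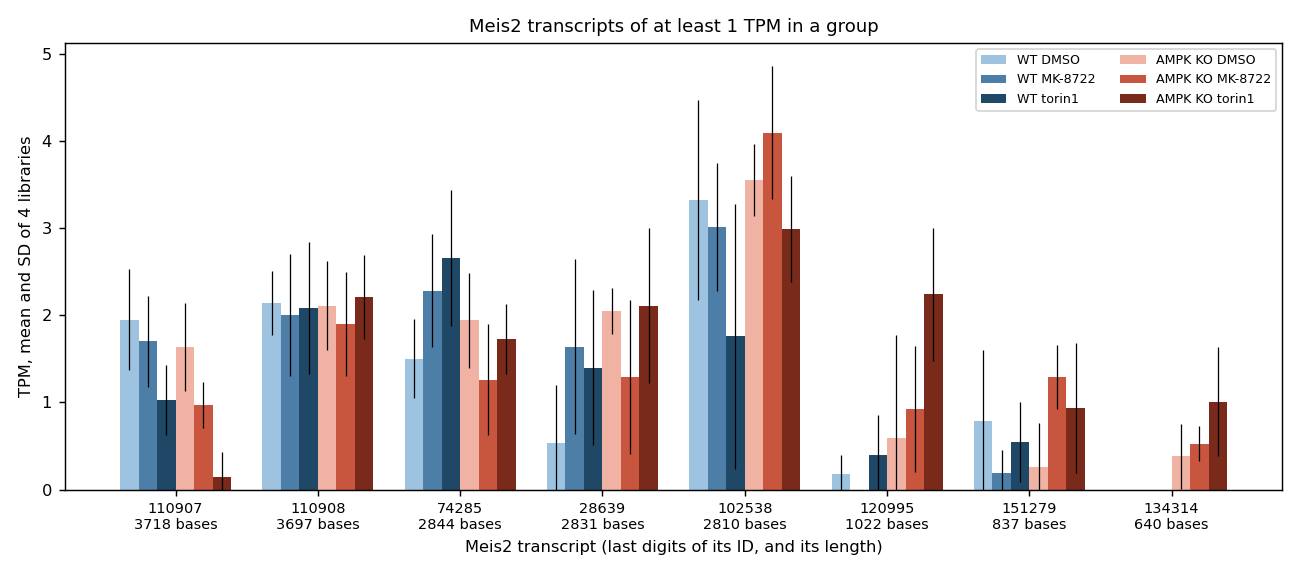
TPM of the 8 Meis2 transcripts that reached a group mean of 1 TPM, ordered by length, with bars for the mean and lines for the SD of the 4 libraries in each of the 6 groups. In AMPK KO the 3718-base transcript ENSMUST00000110907 is lowest with torin1 and the 1022-base ENSMUST00000120995 highest.

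Meis2 has 19 annotated transcripts in these files, 14 of which reached 0.1 TPM on average in some group. The protein-coding ENSMUST00000110907, 3718 bases long, was estimated in AMPK KO at 1.64 ± 0.504 TPM with DMSO, 0.974 ± 0.265 with MK-8722 and 0.144 ± 0.288 with torin1 (SD, n = 4 each). In WT it was at 1.95, 1.7 and 1.03 TPM. The short ENSMUST00000120995, a processed transcript of 1022 bases, was at 0.589 ± 1.18, 0.924 and 2.24 ± 0.761 TPM in AMPK KO in the same order. Short paired reads assign such overlapping forms by estimate, and the difference between transcripts was not tested.

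Pitx1 and Tbx3 in AMPK KO and Tbx2 in WT passed the filter only through the other genotype, so a count within a genotype rests on 4 members in WT and 3 in AMPK KO. The interactions could be read only for Meis1 and Meis2, which had more than a few counts in both genotypes. Of the 4 in WT, 1 was called for MK-8722 (Meis1), where 15.7% of all tested genes were called, and 2 for torin1 (Pitx1 and Meis1), where 47.6% were. Of the 3 in AMPK KO, torin1 called 1 (Meis2), beside 43.5% of all tested genes. Torin1 against MK-8722 called 3 of the 4 in WT (Pitx1, Meis1 and Meis2) and 1 of the 3 in AMPK KO (Meis1), beside 45.7% and 45.5%. Of Meis1 and Meis2, the MK-8722 interaction called 1 (Meis2), beside 12.8%. For MK-8722 in AMPK KO edgeR and DESeq2 called 0 members, beside 1.56% of all tested genes by edgeR, and 2 of the 3 (Meis1 and Meis2) had an unadjusted p under 0.05. For the torin1 interaction both tools called 0, beside 7.07%, with 1 (Meis1) at an unadjusted p under 0.05. With MK-8722, groups that did not overlap in CPM were found for 1 of the 4 in WT (Meis2, beside 25.5% of all tested genes) and 2 of the 3 in AMPK KO (Meis1 and Meis2, beside 11.7%). With torin1 they were found for 2 of the 4 in WT (Pitx1 and Meis2, beside 51.8%) and 1 of the 3 in AMPK KO (Meis2, beside 53.8%). For torin1 against MK-8722 they were 3 in WT and 1 in AMPK KO, beside 48.9% and 54.3%.

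Passage was read within each genotype. A slope could be read for the 4 members with more than a few counts in WT (Pitx1, Tbx3, Meis1 and Meis2) and the 3 in AMPK KO (Tbx2, Meis1 and Meis2). By edgeR 0 of these passed an adjusted p of 0.05, beside 4.42% of all tested genes in WT and 0.145% in AMPK KO, and 0 had an unadjusted p under 0.05. Pitx1 in WT changed by 0.03 per passage (log2, SE 0.023, adjusted p = 0.46 by edgeR). Tbx2 in AMPK KO gave -0.07 (SE 0.052, adjusted p = 0.64 by edgeR).

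**Figure D5:**
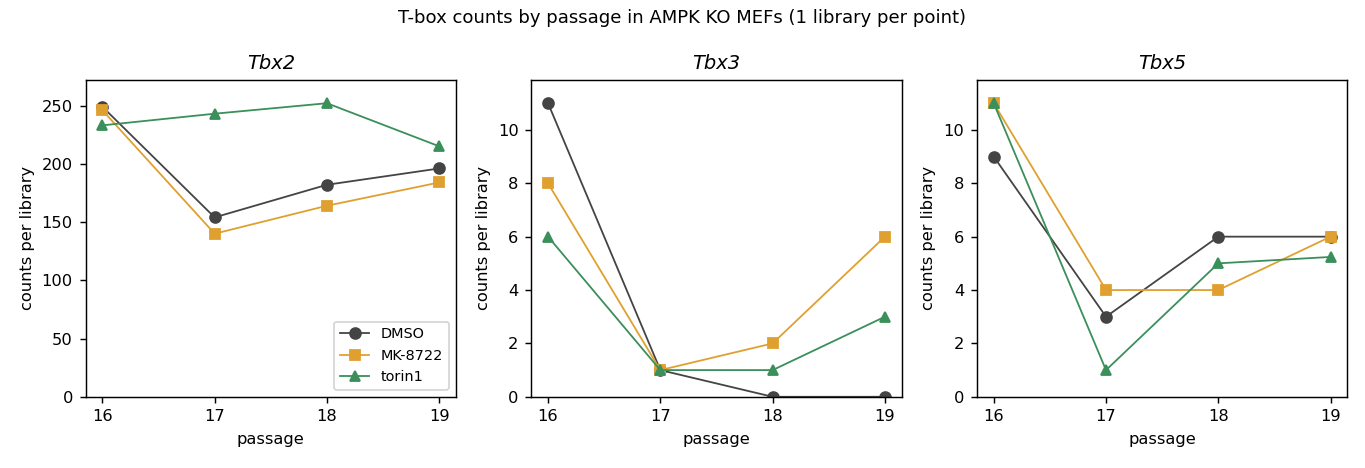
Counts of Tbx2, Tbx3 and Tbx5 in AMPK KO libraries against passage number, with 1 line per treatment. The passage 16 libraries hold the highest Tbx5 and Tbx3 counts of their treatment, and the highest Tbx2 counts with DMSO and MK-8722 but not with torin1.

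The AMPK KO libraries of passage 16 held the highest counts of several T-box genes. Tbx5 had 9, 11 and 11 counts there with DMSO, MK-8722 and torin1, and 1 to 6 counts in the 9 libraries of later passages. Tbx3 had 11, 8 and 6 counts at passage 16, each the highest of its treatment. Tbx2 had 249 and 246 counts there with DMSO and MK-8722, above 140 to 196 in the later passages, but 233 with torin1, within the 215 to 252 of that group. This was noticed after the values were seen and was not tested, and for Tbx3 and Tbx5 it rests on few counts.

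The genes of most similar level were sought over the 12 libraries of the genotype in which a member was higher, among genes of at least 5 CPM, by Pearson's r of log2 CPM. These values are descriptions, since the libraries share treatments and depth. For Pitx1 in WT they were Limk1 (r = 0.978), Prelid1 (0.976) and Kctd17 (0.976), and for Meis2 in WT Rock1 (0.972), Spopl (0.972) and Celf4 (0.97). For Meis1 in AMPK KO they included Ttc1 (r = 0.932) and Mdm1 (0.925), and for Tbx2 in AMPK KO Slc39a3 (0.925), Dstyk (0.901) and Ggt7 (0.9). Tbx3 in WT had the lowest best match, Tubgcp5 (0.745).

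Other genes of the same families were counted from lists that were chosen with results of these data known. Of 12 further T-box genes listed there, 6 were tested, including Tbx1, which had only 0 to 6 counts per WT library. With MK-8722 in WT 2 of them rose and 0 fell, beside 15.7% of all tested genes called, with a list median of 0.02 on the log2 scale beside 0 over all tested genes. Tbx20, a T-box factor of the developing heart, rose from 57.5 to 81.6 CPM there (0.51, SE 0.067, adjusted p = 4e-06 by edgeR). With torin1, 1 rose in WT and 4 in AMPK KO, beside 47.6% and 43.5% of all tested genes called. The list medians were 0.05 and 0.32 beside 0.04 and 0.06 over all tested genes. Tbx18, known from the epicardium and the ureter, rose by 0.43 (SE 0.061, adjusted p = 1.8e-06 by edgeR) in WT and by 0.74 (SE 0.067, adjusted p = 1.8e-09 by edgeR) in AMPK KO. With MK-8722 in AMPK KO edgeR and DESeq2 called 0 of these T-box genes, beside 1.56% of all tested genes by edgeR, and 1 had an unadjusted p under 0.05.

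Of 16 TALE homeobox genes other than Meis1 and Meis2, 14 were tested, including Irx3, which had only 2 to 8 counts per AMPK KO library. With torin1, 1 rose and 2 fell in WT, and 3 rose and 4 fell in AMPK KO, beside 47.6% and 43.5% of all tested genes called. The list medians were 0.14 and 0 beside 0.04 and 0.06 over all tested genes. Meis3, the nearest relative of the Meis members, rose by 0.51 (SE 0.072, adjusted p = 1.9e-06 by edgeR) with torin1 in AMPK KO, where Meis1 gave 0.12 and Meis2 fell by count. Irx2, a TALE gene of the Iroquois group, fell by 0.64 with torin1 in both WT (SE 0.064, adjusted p = 7.1e-09 by edgeR) and AMPK KO (SE 0.064, adjusted p = 9.8e-09 by edgeR), and rose by 0.28 with MK-8722 in WT (SE 0.062, adjusted p = 0.0013 by edgeR), the only called member of the list there. With MK-8722 in AMPK KO edgeR and DESeq2 called 0 of 14, and 5 had an unadjusted p under 0.05. The shares of all tested genes called with MK-8722 were 15.7% in WT and 1.56% in AMPK KO by edgeR.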

How the data were processed

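Poly(A) RNA libraries of WT and AMPK KO MEFs were sequenced as short paired-end reads. Per the study's methods and the submitters' processing notes, the authors ran nf-core/rnaseq with STAR and Salmon on GRCm38. The deposited gene table holds estimated counts that are not normalized. The deposited transcript tables hold TPM, which the authors' tools scaled for length and depth, beside effective lengths. Their columns of each library were matched by name, and 0 columns belonged to no sample.

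Estimated counts were rounded to whole numbers, filtered with filterByExpr (15828 genes, 99.96% of counts), scaled with TMM factors and fitted as 6 group means over all 24 libraries with edgeR 4.0.16 in R 4.3.3 (common biological coefficient of variation 0.079). A gene was called at a Benjamini-Hochberg adjusted p under 0.05 over all genes tested and a fold change of at least 1.2, and passage slopes at adjusted p alone. Tests were two-sided. CPM set each count relative to the library size after these factors, and a prior count of 2 was added for log2 CPM. On simulated counts for MK-8722 in WT (15406 genes), 99% of 200 changed genes were recovered with 6 false calls. This recovery was not tested separately at the effect sizes and levels of the members. Tools also used were DESeq2 1.42.0 and Python 3.11.15. Gene positions and transcripts come from an annotation of GRCm38.

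The 7 genes and all lists were chosen with earlier results of these data known. The text names all 7, for each related list and comparison up to 2 called genes per direction with the largest change and at least 5 CPM, the 3 genes of highest r per member, and the nearest neighbours; a few genes these rules pick are not reported here. No pair of libraries of a group agreed within sampling noise (36 pairs, chi-square per degree of freedom 3.66 to 28.1). Library totals of 26900240 to 34192685 counts put 3 counts at 0.0886 to 0.118 CPM, and limits from counts cover counting error only. Alternatives were other scalings, no filter, DESeq2, replicate or passage as a block, the compared groups alone, other thresholds and leaving out each library or, for slopes, also each passage. An offset for length and leaving out passage 16 were added after seeing the data.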

Additional observations from a re-analysis of the deposited data

Results flagged for a closer look

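In 3 of 37 groups of 4 libraries with unequal values, 1 library lay beyond Dixon's 95% critical value, and chance flags about 1 in 20 groups. All were genes near 0 in AMPK KO. Pitx1 was at 0.0305 CPM in AMPK KO DMSO replicate 3 and at 0 in the other libraries of that group, and Tbx4 was at 0.0305 CPM in AMPK KO torin1 replicate 4 and at 0 in the others. Each of these values is a single count beside zeros, which passes the value by construction. Tbx3 was at 0.336 CPM in AMPK KO DMSO replicate 3, with 11 counts, and at 0 to 0.0324 CPM in the other libraries of that group.

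The response of Meis2 to MK-8722 differed between the genotypes by an interaction test on counts, with a log2 difference of -0.34 (adjusted p = 0.0036 by edgeR). With transcript length as an offset it was -0.13 (adjusted p = 0.61 by edgeR).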

How the results depend on the processing

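The counts of members called were the same with DESeq2, DESeq2 size factors, no filter on low counts and the compared groups alone. With library size alone they were 0 for torin1 in AMPK KO, 1 for torin1 against MK-8722 in WT and 2 in AMPK KO, and the median of all tested genes shifted by 0.1 for torin1 in WT and by 0.102 to 0.139 between the genotypes. With adjusted p alone, 3 were called for MK-8722 in WT and 3 for torin1 in WT. At a fold change of at least 1.5 the count was 0 for MK-8722 in WT, torin1 in WT, torin1 in AMPK KO, torin1 against MK-8722 in AMPK KO and the MK-8722 interaction, and 1 for torin1 against MK-8722 in WT. With passage as a block, 2 were called for torin1 against MK-8722 in AMPK KO. With the length offset, 0 were called for torin1 in AMPK KO and for the MK-8722 interaction. The cause of these changes was not tested beyond how each alternative is built. For all genes, passage as a block gave 729 calls in place of 247 for MK-8722 in AMPK KO and 1861 in place of 1119 for the torin1 interaction.

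Replicate numbers did not pair the libraries, since libraries of the same number and genotype deviated with correlations of -0.196 to 0.25 (4 of 24 pairs above 0.1). Libraries of the same passage had correlations of -0.0114 to 0.367, with 15 of 24 pairs above 0.1. With the replicate number as a block the counts of members called were 1, 0, 2, 1, 3, 1, 1 and 0 in the drug comparisons and interactions, as without it. It gave 156 genes with a passage slope in WT in place of 699 and 5 in place of 23 in AMPK KO.

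Leaving out 1 library at a time gave 2 to 3 members for torin1 against MK-8722 in WT. It gave 1 to 2 for this comparison in AMPK KO, for torin1 in AMPK KO and for the MK-8722 interaction. For the slopes whole passages were also left out, and the slope in AMPK KO then called 0 to 1, the 1 being Tbx3 without passage 19. Of the related lists, with 1 library left out, the genes that rose with torin1 in WT were 1 to 3 T-box, 1 to 3 TALE and 1 to 3 retinoic acid genes, and 1 to 3 retinoic acid genes rose with MK-8722, all reaching 3 without WT DMSO replicate 2. No value called with all libraries turned its direction, but Tbx3 for torin1 in AMPK KO turned to 2.54 and passed the limits without AMPK KO DMSO replicate 3 (adjusted p = 0.03 by edgeR). Over the libraries left out, Tbx3 ranged from -0.069 to 0.066 for MK-8722 in WT, -0.143 to 0.014 for torin1 in WT, -0.003 to 3.21 for MK-8722 in AMPK KO, -0.018 to 3.18 for its interaction, -0.86 to 2.54 for torin1 in AMPK KO and -0.81 to 2.56 for its interaction. Tbx2 ranged from -0.267 to 0.009 for MK-8722 in AMPK KO and -0.285 to 0.043 for the torin1 interaction, and Pitx1 from -0.54 to 0.34 for torin1 against MK-8722 in AMPK KO. With 1 library or 1 whole passage left out, slopes in WT ranged from -0.05 to 0.014 for Tbx3, -0.063 to 0.068 for Meis1 and -0.02 to 0.006 for Meis2. In AMPK KO they ranged from -0.151 to 0.076 for Tbx2, -1.79 to 0.79 for Tbx3, -0.021 to 0.04 for Meis1 and -0.008 to 0.018 for Meis2. The Tbx3 slope in AMPK KO passed the limit without passage 19 (-1.79, adjusted p = 0.02 by edgeR), at 0 to 11 counts per library.

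Other values that turned were Tbx3 for torin1 in WT (0.052), for torin1 against MK-8722 in WT (0.016) and its slope in WT (0.003), Pitx1 for torin1 against MK-8722 in AMPK KO (0.043) and Meis2 between the genotypes in torin1 (0.091) with library size alone. With the length offset these were Tbx3 for torin1 in WT (0.105), in AMPK KO (0.13), against MK-8722 in WT (0.091), by genotype (0.025) and its slope in WT (0.065), and Meis2 for torin1 by genotype (0.13), between the genotypes in MK-8722 (0.003) and torin1 (0.26), and its slopes (0.017 in WT, 0.031 in AMPK KO). Without passage 16, Tbx3 gave 1.85 for torin1 in AMPK KO and 1.88 by genotype. Members at a few counts limit what these libraries can show.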

Other observations

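Genes that act in limb buds beside the members, counted from a list of 39 of which 27 were tested, included some with very unequal levels between the lines, and the 3 named here for it were picked after their values were seen and are all higher in WT. Others lay the other way, among them Msx2, a homeobox factor of the limb mesenchyme and apical ridge, with 6.43 ± 0.431 CPM in the WT libraries and 20 ± 1.64 CPM in those of AMPK KO, and Fgfr1, an FGF receptor, at 147 ± 1.48 and 207 ± 9.07 CPM (SD, n = 4 each, in DMSO). In DMSO the homeobox gene Lhx9, which acts in limb mesenchyme, had 137 ± 5.83 CPM in the WT libraries and 1.64 ± 0.21 CPM in those of AMPK KO, Shox2, a factor of the proximal limb, at 50.9 ± 9.85 and 1.24 ± 0.238 CPM, and Prrx1, a general limb mesenchyme factor, at 202 ± 14.3 and 22.6 ± 2.56 CPM (SD of 4 libraries). Some of the 27 tested were near 0 in 1 genotype, such as Dlx5 (0 to 3 counts per AMPK KO library) and Alx1 (0 to 2 per WT library). Such genes could hardly be called there, but stay in the counts and medians that follow. In WT, 4 of the 27 rose and 5 fell with MK-8722, beside 15.7% of all tested genes called, with a list median of -0.16 on the log2 scale beside 0 over all tested genes. Leaving out 1 library gave 2 to 4 that rose (2 without WT MK-8722 replicate 1 or WT DMSO replicate 4) and 3 to 6 that fell (3 without WT DMSO replicate 2). Grem1, a BMP antagonist of the limb bud, rose by 1.41 (SE 0.2, adjusted p = 8e-06 by edgeR) there and by 1.16 (SE 0.2, adjusted p = 1.8e-05 by edgeR) with torin1 in WT. Fgfr2, a receptor for FGF signals of the limb, rose by 0.98 (SE 0.094, adjusted p = 2.8e-08 by edgeR) with MK-8722 in WT and fell by 0.72 (SE 0.15, adjusted p = 0.012 by edgeR) in AMPK KO (3.87 and 2.35 CPM with DMSO and MK-8722), where 1 gene of the list rose and 1 fell, beside 1.56% of all tested genes called. With torin1, 6 rose and 5 fell in WT, and 4 rose and 3 fell in AMPK KO (5 fell without AMPK KO torin1 replicate 2), beside 47.6% and 43.5% of all tested genes called. Twist2, a mesenchymal repressor, fell by 0.41 (SE 0.082, adjusted p = 0.00015 by edgeR) and 0.57 (SE 0.083, adjusted p = 3.4e-06 by edgeR).

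Retinoic acid is known to act upstream of Meis genes, and 12 of 18 genes of its pathway were tested. With torin1, 1 rose and 4 fell in WT, and 2 rose and 2 fell in AMPK KO, beside 47.6% and 43.5% of all tested genes called. Crabp2, which carries retinoic acid to the nucleus, fell by 0.75 (SE 0.11, adjusted p = 2e-06 by edgeR) in WT, where it was at 21.3 CPM with DMSO. It rose by 0.46 (SE 0.1, adjusted p = 0.0018 by edgeR) with MK-8722 in WT, where 1 gene of the list rose and 1 fell, beside 15.7% of all tested genes called. In AMPK KO Crabp2 had only 15 to 23 counts per library with DMSO and 4 to 11 with torin1. A list of 4 genes was taken as possible targets of T-box repressors, the cell cycle inhibitor genes Cdkn1a, Cdkn2a and Cdkn2b and the adhesion gene Cdh1. Of these, 2 fell with torin1 in AMPK KO, beside 43.5% of all tested genes called. In WT 1 rose (Cdh1) and 2 fell with torin1, beside 47.6%. Cdh1 was at 0.775 CPM with DMSO and 1.46 CPM with torin1 there, and was not called without WT torin1 replicate 2 or WT DMSO replicate 1, 3 or 4. Cdkn1a fell by 1.34 (SE 0.22, adjusted p = 1.4e-05 by edgeR) in WT and 0.67 (SE 0.21, adjusted p = 0.0094 by edgeR) in AMPK KO, and Cdkn2b by 0.42 (SE 0.092, adjusted p = 0.00041 by edgeR) and 0.68 (SE 0.098, adjusted p = 2.7e-06 by edgeR). No relation of these genes to the members was tested.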
